A study of Mus musculus with 12 samples.

Results

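The 10 genes described here encode RNA-binding proteins of neuronal RNA granules, the compartment where the kinase KIS has been located in neurons: Stau1, Stau2, Fmr1, Fxr1, Fxr2, Nono, Caprin1, G3bp1, Cpeb1 and Pura. They were chosen by name, and every probeset of the main type that carried one of these symbols was taken. All 10 were found among the 17550 symbols of the table, with 183 of its 221417 main probesets that carry a symbol. Total RNA was prepared from whole brains of newborn female mice on a C57BL6/N background, and each brain was hybridized to its own Affymetrix Mouse Exon 1.0 ST array. The 12 arrays are 6 of wildtype (KIS +/+) and 6 of KIS-ko (KIS -/-) brains, as 1 pair of littermates from each of 6 litters. The labels give no further allele and no treatment for either genotype. A probeset is a small group of probes in 1 exon or part of an exon, and its value is a linear signal that depends on its probes, so that levels are not compared between probesets or between genes.

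RNA granules are assemblies of mRNAs, ribosomal subunits and RNA-binding proteins that kinesin motors carry along microtubules into dendrites and axons. Their mRNAs are held in a translationally repressed state on the way and are released for local protein synthesis, which neurons use in growth and in synaptic plasticity. Granule proteins have different tasks: some bind double-stranded RNA and link it to transport, some repress or activate translation, and some nucleate condensates such as stress granules.

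None of the 10 genes differed between KIS-ko and wildtype brains after correction for all genes. The largest differences were a lower value of Cpeb1, a regulator of cytoplasmic polyadenylation, and a higher value of Pura, a single-stranded nucleic acid binding protein of transported granules. The log2 difference was -0.14 for Cpeb1 (95% interval -0.25 to -0.02) and 0.11 for Pura (95% interval -0.02 to 0.25). Cpeb1 was measured almost entirely by probesets below the intron control level, and the Pura difference rested on 1 probeset marked as open to cross-hybridization. On the arrays as deposited, the estimates for the other 8 genes lay between -0.075 and -0.010 on the log2 scale. The outermost bounds of their 95% intervals there were -0.21 and 0.10.

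The targeted gene checked the genotype labels. Uhmk1, which encodes KIS, was lower in all 6 KIS-ko brains than in any wildtype brain, with a limma log2 difference of -2.11 (adjusted p = 2.9e-07). A gene value is the mean over the kept probesets of a gene of log2(signal + 16), where probesets with a relative SD above 0.4 in either genotype were rejected. The correlation between log2 signals of 2 arrays lay between 0.978 and 0.992. The median signal of the deposited arrays lay between 460 and 526, and within litters it was lower in the KIS-ko array except in litter 4, which bears on every direction given below. The tissue label was checked with marker lists: all 8 neuronal markers that were found had a median probeset above the intron control level, against 1 of 7 for microglia. The mean gene value of the neuronal markers lay between 12.23 and 12.38 in wildtype and between 12.19 and 12.33 in KIS-ko arrays, and was lower in the KIS-ko array in 4 of 6 litters. The astrocyte and radial glia markers lay between 10.81 and 11.05 in wildtype and between 10.74 and 10.96 in KIS-ko arrays, with the lower value in the KIS-ko array in 5 of 6 litters. All 7 of them were lower in KIS-ko (median log2 difference -0.086), beside 69.8% of all genes. At an unadjusted limma p of 0.05, 1 passed, Gfap (-0.27, unadjusted p = 0.0069, adjusted p = 0.685), beside 6.16% of all genes. Of 7 proliferation markers, 6 were lower in KIS-ko (median log2 difference -0.097) and 0 passed an unadjusted limma p of 0.05, beside 69.8% and 6.16% of all genes. Their median was -0.042 with each array centred on its median and -0.015 with gene values as medians over probesets. Without litter 4 all 7 were lower and 5 passed that p, beside 71.8% and 23.3% of all genes. Of 5 erythroid markers, 1 was lower with all litters (median 0.017). In whole tissue, fewer cells of a type and less RNA per cell cannot be told apart, and the part of cell composition or of proliferating cells in the differences below was not tested.

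Of the 183 probesets of the granule genes, 179 were kept, and the 4 rejected ones belong to Fmr1 (2), Fxr1 (1) and Fxr2 (1). Probesets in introns serve as background controls, and 95% of the 5222 such controls had a signal up to 713, called the intron control level here. It was exceeded by 136 of the kept probesets. The table marks 137 of them as matching 1 place in the genome and 42 as open to cross-hybridization. This coverage was uneven. All 16 probesets of Stau1 and 25 of 26 of Caprin1 were above the intron level, against 1 of 17 for Cpeb1. None of the 16 Nono probesets and 4 of the 17 of G3bp1 match 1 place only.

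The promoters of 8 of the 10 genes were in the RefSeq table (GRCm38.p6), as 10 windows of the 250 bases upstream of an annotated start, without Stau2 and Pura. The GC box (GGGCGG) was in 8 of the 10 windows, against 32.7% of all 32851 promoter windows, and a core of the NRF1 motif (GCATGCGC) in 4, against 2.26%. These 4 windows belong to 3 genes (Stau1, Fmr1 and Nono), since both windows of Fmr1 overlap and hold the same match. The E-box (CACGTG) was in 2 windows, again those of Fmr1, against 6.02%, and the TATA box (TATAAA) in 2, of Cpeb1 and G3bp1, against 12.4%. The GC content was between 47.6% and 80.0%, and 9 of the 10 windows were above the median of 52.4% of all windows. Both strands were searched, and a match is a description of the letters. The windows of the 3 genes with the lowest differences are shown 5' to 3' on the gene's strand, with matches to any of the 4 motifs on either strand in capitals. They lie at chrX:68678291-68678540 (plus strand) for Fmr1, chr3:34019829-34020078 (plus strand) for Fxr1 and chr7:81454759-81455008 (minus strand) for Cpeb1.
Fmr1: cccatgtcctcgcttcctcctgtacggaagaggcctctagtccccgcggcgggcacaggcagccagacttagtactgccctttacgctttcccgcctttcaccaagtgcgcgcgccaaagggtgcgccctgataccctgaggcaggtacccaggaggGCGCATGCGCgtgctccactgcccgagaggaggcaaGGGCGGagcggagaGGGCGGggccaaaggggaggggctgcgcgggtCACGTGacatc
Fxr1: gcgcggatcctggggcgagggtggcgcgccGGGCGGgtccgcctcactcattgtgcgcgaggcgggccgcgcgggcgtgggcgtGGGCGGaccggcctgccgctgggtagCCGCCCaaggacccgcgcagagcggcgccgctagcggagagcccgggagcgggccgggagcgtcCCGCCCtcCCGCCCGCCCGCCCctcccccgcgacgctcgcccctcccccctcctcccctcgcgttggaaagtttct
Cpeb1: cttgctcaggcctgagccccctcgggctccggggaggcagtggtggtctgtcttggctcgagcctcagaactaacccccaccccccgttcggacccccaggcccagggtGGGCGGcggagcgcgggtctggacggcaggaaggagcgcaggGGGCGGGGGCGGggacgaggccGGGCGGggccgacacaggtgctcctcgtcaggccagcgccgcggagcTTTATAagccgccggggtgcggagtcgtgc
The Fmr1 window holds the NRF1 core, 2 GC boxes and the E-box, that of Fxr1 several GC boxes on both strands, and that of Cpeb1 GC boxes and a TATA box on the opposite strand.

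**Figure D1:**
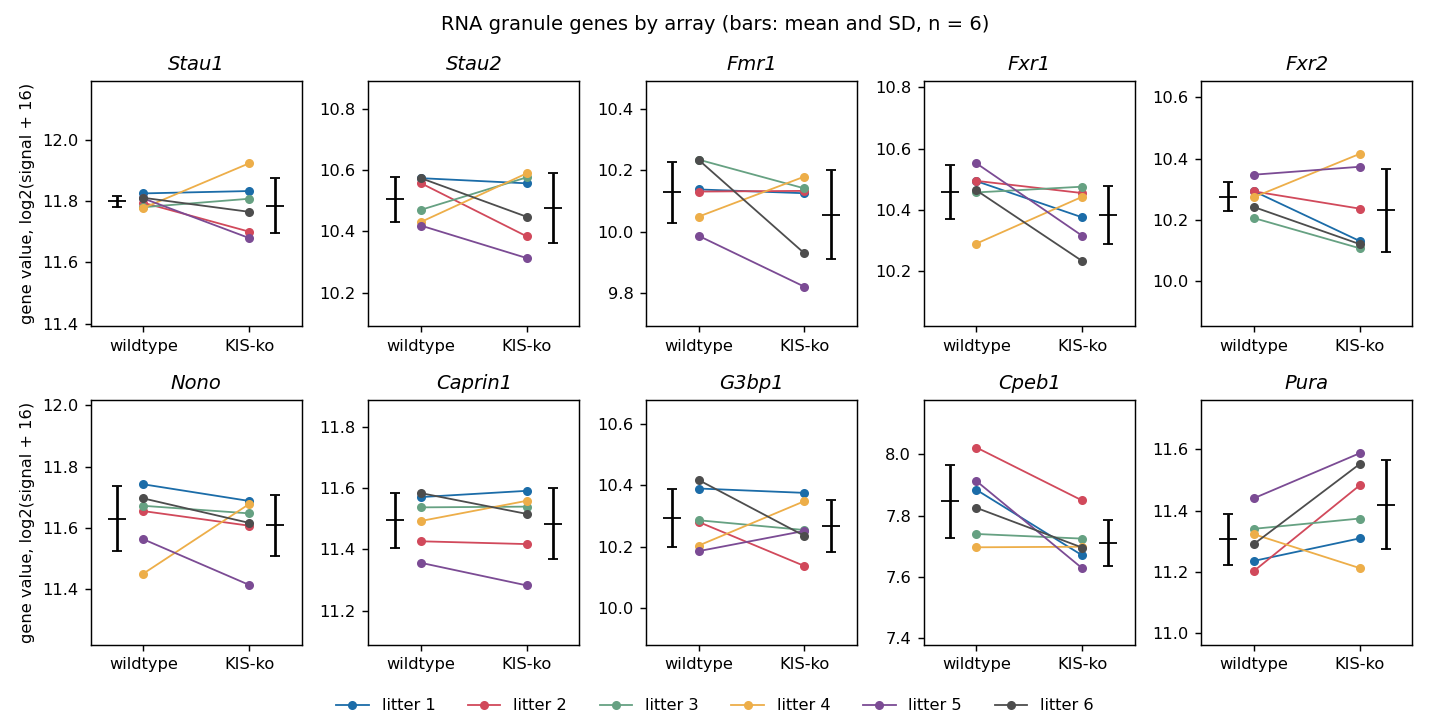
Gene value (log2 scale) of each of the 10 genes on the 12 arrays. Lines join littermates, colours give the litter, and black bars show the mean and SD of 6 arrays per genotype. Every panel spans the same range. The genotypes overlap in all 10 panels, and the share of all genes that overlap in this way was not counted. The line of litter 4 runs upward in 9 of the 10 panels (Pura is the exception).

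The double-stranded RNA binding proteins Stau1 and Stau2, mammalian Staufen homologues that take part in mRNA transport and decay, were the first pair. The gene value of Stau1 was lowest at 11.78, had a median of 11.80 and was highest at 11.83 in wildtype. In KIS-ko brains these values were 11.68, 11.79 and 11.92. The KIS-ko arrays therefore lay on both sides of the narrow wildtype range, with 3 below and 2 above all wildtype arrays. The limma log2 difference was -0.015 (95% interval -0.13 to 0.098; adjusted p = 0.917). Stau2 had its lowest, median and highest values at 10.42, 10.51 and 10.57 in wildtype and at 10.31, 10.50 and 10.59 in KIS-ko. The log2 difference was -0.026 (95% interval -0.15 to 0.10; limma adjusted p = 0.867), with the KIS-ko brain lower in 4 of 6 litters. Stau2 lies on chromosome 1, as Uhmk1 does, with a listed distance of 156 Mb between them.

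The fragile X family comprises Fmr1, whose protein represses translation of many synaptic mRNAs and whose loss causes fragile X syndrome, and its autosomal relatives Fxr1 and Fxr2. Fmr1 had its lowest, median and highest gene values at 9.99, 10.13 and 10.23 in wildtype and at 9.82, 10.13 and 10.18 in KIS-ko brains. The medians were almost equal, and the KIS-ko arrays of litters 5 and 6 lay below all wildtype arrays. The log2 difference was -0.074 (95% interval -0.21 to 0.060; limma adjusted p = 0.701). Without litter 4 it was -0.11, and without litter 6 it was -0.028. Fxr1 had 10.29, 10.48 and 10.55 in wildtype and 10.23, 10.41 and 10.48 in KIS-ko, with a log2 difference of -0.075 (95% interval -0.21 to 0.058; limma adjusted p = 0.699). Its lowest wildtype array, that of litter 4, stood apart from the other wildtype arrays, of which the next was at 10.46. Without litter 4 the Fxr1 difference was -0.12 (adjusted p = 0.217), and without litter 5 it was -0.043. Fxr2 had 10.21, 10.28 and 10.35 in wildtype and 10.11, 10.18 and 10.42 in KIS-ko, with a log2 difference of -0.045 (95% interval -0.16 to 0.072; limma adjusted p = 0.757). Without litter 1 the Fxr2 difference was -0.022, and without litter 4 it was -0.082. In this gene the KIS-ko arrays lay outside the wildtype range on both sides, 3 below and 2 above.

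Caprin1 and G3bp1 encode partners in stress granules, where G3bp1 nucleates condensation and Caprin1 binds it and mRNAs of synaptic proteins. Caprin1 had its lowest, median and highest gene values at 11.36, 11.52 and 11.58 in wildtype and at 11.28, 11.53 and 11.59 in KIS-ko. On the arrays as deposited, it had the smallest genotype difference of the 10 genes, -0.010 on the log2 scale (95% interval -0.11 to 0.090; limma adjusted p = 0.935). On that scaling this bounds a change at -7.35% and 6.41%. With each array centred on its median, the Caprin1 difference was 0.045 (95% interval -0.040 to 0.13), and Fxr2 had the smallest, 0.0105. The littermates lay close together in Caprin1 while its litters lay apart, as described with the litters. G3bp1 had 10.19, 10.28 and 10.42 in wildtype and 10.14, 10.25 and 10.38 in KIS-ko, with a log2 difference of -0.027 (95% interval -0.15 to 0.095; limma adjusted p = 0.856). With its 4 probesets that match 1 place, the difference was -0.042.

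Nono, a nuclear DBHS-family protein that also occurs in transport granules, had its lowest, median and highest gene values at 11.45, 11.66 and 11.74 in wildtype and at 11.41, 11.63 and 11.69 in KIS-ko. The log2 difference was -0.021 (95% interval -0.15 to 0.10; limma adjusted p = 0.891), although the KIS-ko brain was lower in 5 of 6 litters. In litter 4 it was higher, by 0.23, and without that litter the difference was -0.071 (adjusted p = 0.327). No Nono probeset is marked as matching 1 place, so that a value for Nono alone was not measured.

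Cpeb1 binds a U-rich element in the 3' end of mRNAs and controls their polyadenylation and translation in dendrites. Its gene value was lowest at 7.70, had a median of 7.85 and was highest at 8.02 in wildtype, and in KIS-ko brains these values were 7.63, 7.70 and 7.85. The KIS-ko arrays lay in the lower part of the wildtype range or below it (3 of 6 below all wildtype arrays), and the groups overlapped. The KIS-ko value was lower in 5 of 6 litters, with the lowest difference, -0.284, in litter 5, and a difference of 0.0019 in litter 4. The log2 difference of -0.14 (standard error 0.053) corresponds to -8.97% (95% interval -16.1% to -1.22%). Its unadjusted limma p was 0.0281 and its adjusted p was 0.685. The log2 difference was -0.049 with a relative SD limit of 0.2, which left 6 probesets, and -0.22 with the median over probesets. Without litter 1, 2 or 5 the unadjusted limma p of Cpeb1 rose above 0.05, with log2 differences of -0.12, -0.13 and -0.11. The difference was not shared by the brightest probeset. Of 17 probesets, the 1 above the intron control level, at chr7:88516939-88516984, had a mean signal of 776 in wildtype and 822 in KIS-ko, a log2 difference of 0.087. From this probeset alone, Cpeb1 had an unadjusted limma p of 0.377 (adjusted p = 0.784). The other 16 had wildtype mean signals between 85.0 and 387, within the range of the intron controls, so that transcript and background cannot be told apart in them.

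Pura binds purine-rich single-stranded DNA and RNA and is found on kinesin-associated granules in dendrites. Its gene value was lowest at 11.20, had a median of 11.31 and was highest at 11.44 in wildtype, and in KIS-ko these values were 11.21, 11.43 and 11.59. The KIS-ko brain had the higher value in 5 of 6 litters, 3 of 6 KIS-ko arrays lay above all wildtype arrays, and the lowest KIS-ko array was that of litter 4. The log2 difference of 0.11 (standard error 0.060) corresponds to 8.21% (95% interval -1.27% to 18.6%), with a limma adjusted p of 0.685. The gene has only 4 probesets. The 3 that match 1 place differed by 0.049, 0.060 and -0.042 on the log2 scale, and the remaining one, marked as open to cross-hybridization, by 0.39. With the 3 probesets alone, the log2 difference of Pura was 0.023 (adjusted p = 0.862). With the median over probesets it was 0.22 (adjusted p = 0.782). With probesets below the intron control level left out, Pura had an unadjusted limma p of 0.041 (adjusted p = 0.748).

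**Figure D2:**
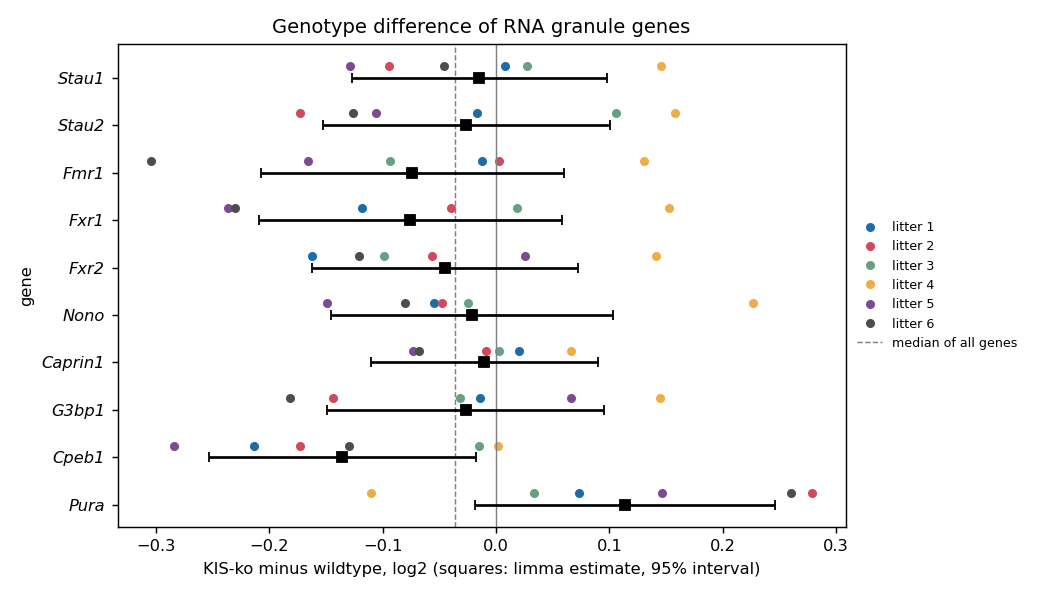
KIS-ko minus wildtype difference (log2) of the 10 genes. Squares and bars are limma estimates with 95% intervals, coloured points the 6 litters, and the dashed line the median of all 17279 genes (-0.036). Only the interval of Cpeb1 does not include 0, and litter 4 has the highest difference of the 6 litters in 9 genes and the lowest in Pura.

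The KIS-ko mean was the lower one in 9 of the 10 granule genes, beside 69.8% of all 17279 genes tested. Without litter 2, 5 or 6 it was lower in 7, 6 and 7 of them, beside 65.6%, 67.6% and 66.5% of all genes. The median log2 difference of the granule genes was -0.027, and that of all genes was -0.036. It was -0.067 without litter 4, -0.013 without litter 2 and -0.0091 without litter 6, where all genes had -0.057, -0.025 and -0.022. With probesets below the intron control level left out it was -0.015, beside -0.033 over all genes. With only probesets that match 1 place (9 genes) it was -0.042, beside -0.038. At an unadjusted p of 0.05, limma called 1 of the 10 genes (Cpeb1), beside 6.16% of all genes, and at an adjusted p of 0.05 it called 0 of them, beside 0.00579% of all genes, which is Uhmk1 alone. The direction depends on the scaling of the arrays. With every array centred on its own median, 3 of 10 granule genes and 37.8% of all genes were lower, and after a second quantile normalization 4 of 10 and 48.6%. The genes that were lower under all of these scalings were Fmr1, Fxr1 and Cpeb1, and Pura was higher under all of them. Their sizes moved: after centring the log2 differences were -0.018 (Fmr1), -0.020 (Fxr1), -0.080 (Cpeb1) and 0.17 (Pura). After a second quantile normalization they were -0.036, -0.037, -0.090 and 0.14.

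**Figure D3:**
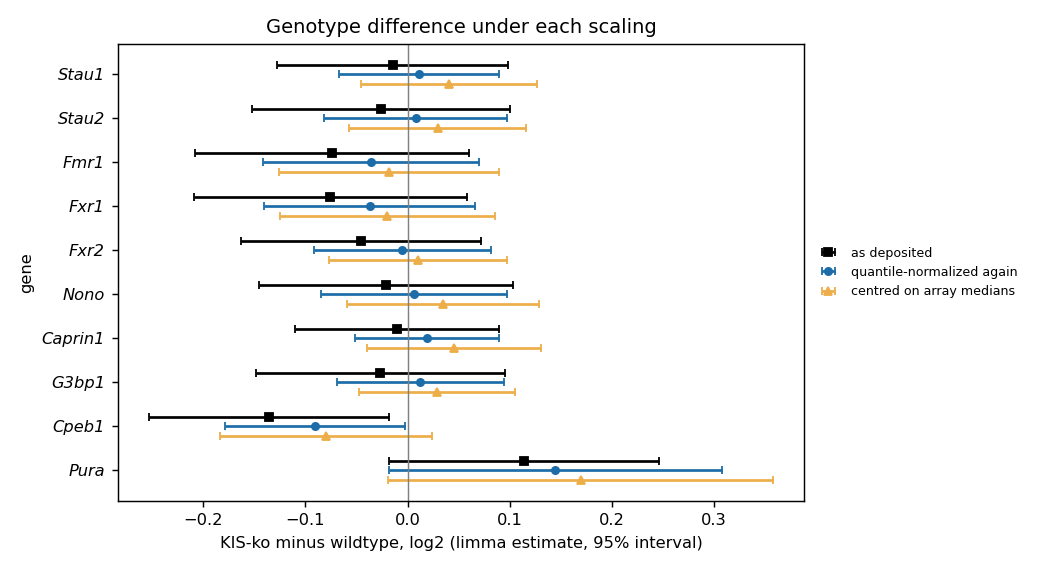
KIS-ko minus wildtype difference (log2, limma estimate and 95% interval) of the 10 genes on the arrays as deposited, after a second quantile normalization and after centring each array on its median. Squares lie left of 0 in 9 genes, circles in 4 and triangles in 3.

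By the ratio that the study's methods define, a weighted mean over probesets of the mean KIS-ko over wildtype ratio of the pairs, 1 of the 10 genes differed from 1 by at least 6%, beside 26.4% of all genes. This was Cpeb1 with a ratio of 0.922 ± 0.062 (SD over 6 pairs), below 1 in 6 of 6 pairs and between 0.843 and 1.00. Pura had a ratio of 1.03 ± 0.048 (SD, n = 6 pairs), and the ratios of the other genes lay between 0.968 (Fxr1) and 1.01 (Nono). Without litter 4, 3 of the 10 genes differed by at least 6%, beside 44.2% of all genes. After centring or a second quantile normalization the ratio of Cpeb1 was 0.949 or 0.948, within 6% of 1, and that of Pura was 1.09 or 1.06, so that 1 gene was counted there too but not the same one. With the dim probesets left out, the ratio of Cpeb1 was 1.09, and with only probesets that match 1 place, that of Pura was 0.998. Without weights the ratio of Pura was 1.11.

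The litters differed in the direction of the pair. In litter 4, the KIS-ko brain had the higher value in 9 of 10 granule genes, with a median difference of 0.14 on the log2 scale, and the median over all genes was 0.071. In litters 1, 2, 3, 5 and 6, the KIS-ko brain had the lower value in 7, 8, 5, 7 and 9 of the 10 genes. The granule genes thus followed the sign of the median of all genes within litters 1, 2, 4, 5 and 6. In litter 3, where 5 genes were lower and 5 higher, the median of all genes was 0.0023. Litter 6 was at the opposite end, with a median of -0.12 in the granule genes and -0.11 over all genes. Fmr1 and Fxr1 had their lowest KIS-ko differences in litters 5 and 6, at -0.305 for Fmr1 in litter 6 and -0.236 for Fxr1 in litter 5.

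Differences between litters, whatever the genotype, were tested with a moderated F test. None of the 10 genes passed at an unadjusted p of 0.05, beside 11.3% of all genes. Without litter 5 none passed either, beside 661 of 17269 genes. On the arrays as deposited, with all litters, Caprin1 came nearest, with litter means between 11.32 in litter 5 and 11.58 in litter 1 (unadjusted p = 0.0517, limma adjusted p = 0.447). After centring, Fxr2 had the lowest unadjusted p of this F test, 0.0148, and Caprin1 had 0.178. After a second quantile normalization Fxr2 had 0.0181. The Caprin1 litter means spanned 0.26, and its genotype differences over the litters had an SD of 0.053 (n = 6). Outside litter 5 its lowest litter mean was 11.42 (litter 2), and without litter 5 its unadjusted p in the F test was 0.445. Litter 5 had the lowest mean of the 2 genotypes in 5 genes, namely Stau1, Stau2, Fmr1, Nono and Caprin1, and the highest mean in Fxr2 and Pura. Its arrays also had the lowest median signal of their genotypes, 473 in wildtype and 460 in KIS-ko. The part of scaling in these litter means was not tested. The Fmr1 litter means spanned 0.28 (9.90 in litter 5 to 10.19 in litter 3), and those of Stau1 spanned 0.11. Outside litter 5 the lowest Fmr1 litter mean was 10.08 (litter 6), and without litter 5 its unadjusted p in the F test was 0.903.

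Below the level of genes, 122 of 179 probesets of the granule genes were lower in KIS-ko, beside 66.2% of all probesets, and with the arrays centred 69 were lower, beside 43.5% of all probesets. An unadjusted limma p under 0.05 was reached by 7 of them, 6 lower and 1 higher, beside 6.63% of all probesets. The lowest adjusted p was 0.711. Of these 7, 5 belong to Cpeb1, 1 to Fmr1 and 1 to Pura. Without litter 4 the count was 27 of 179, beside 16.3% of all probesets under that setting. In the 136 probesets above the intron control level, 91 were lower, beside 70.2% of all probesets above that level, and the median difference was -0.023.

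The 3 probesets of lowest p all lie in Cpeb1 and all are below the intron control level. The lowest was at chr7:88496772-88496796, where the signal lay between 168 and 319 in wildtype and between 107 and 215 in KIS-ko (log2 difference -0.33, unadjusted p = 0.0044, limma adjusted p = 0.711). It rests on 1 probe and is marked as open to cross-hybridization. The first probeset of the gene, at chr7:88581100-88581207, lay between 122 and 196 in wildtype and between 53.8 and 137 in KIS-ko (log2 difference -0.46, unadjusted p = 0.0197, limma adjusted p = 0.751). Without litter 6 its difference was -0.29. The third, at chr7:88506562-88506674, lay between 152 and 280 in wildtype and between 139 and 189 in KIS-ko (log2 difference -0.28, unadjusted p = 0.0251, limma adjusted p = 0.751). In each of these the groups overlapped. All positions are those of the table, whose genome build is not named in the sources used here.

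**Figure D4:**
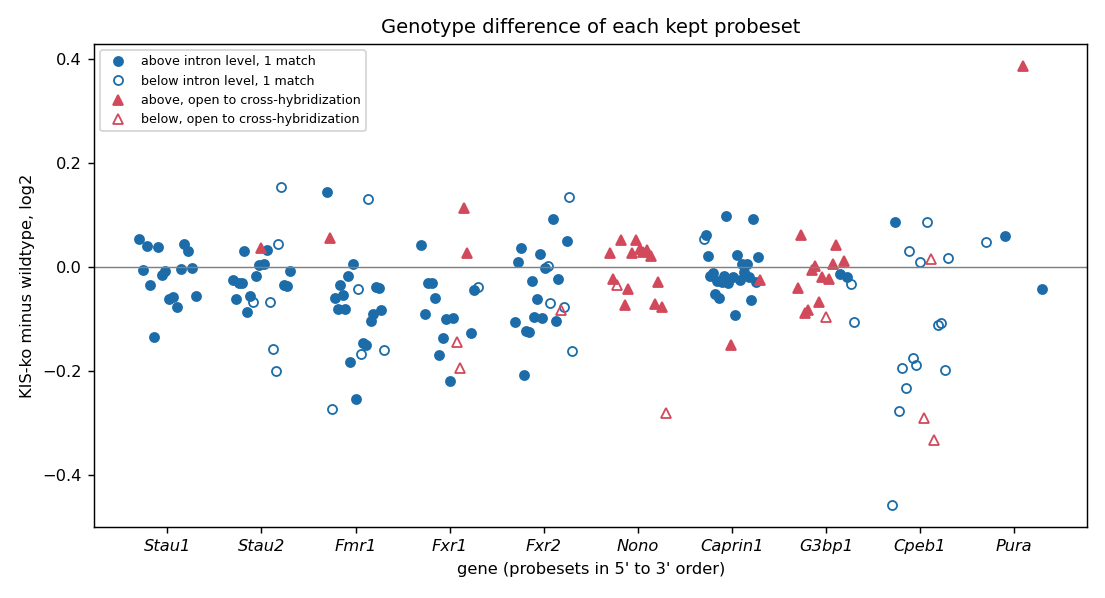
KIS-ko minus wildtype difference (log2) of the 179 kept probesets, ordered 5' to 3' within each gene. Filled symbols exceed the intron control level, open ones do not, and triangles are marked as open to cross-hybridization. The lowest point, at -0.46, is an open circle of Cpeb1 and the highest, at 0.39, a triangle of Pura.

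A splicing index, the log2 signal of a probeset minus the value of its gene, was compared to see whether single exons moved apart from their gene. An unadjusted limma p under 0.05 was reached by 3 of the probesets of the granule genes, beside 6.11% of all probesets tested, and the lowest adjusted p was 0.785. Without litter 4 the count was 23 of 179, beside 12.4% of all probesets under that setting. The lowest p belongs to Stau2, in a probeset at chr1:16219891-16219927 that was below the intron control level, with signals between 201 and 235 in wildtype and between 194 and 303 in KIS-ko. Its index was higher by 0.18 in KIS-ko (unadjusted p = 0.0196). The second was the Pura probeset that is open to cross-hybridization, with signals between 1633 and 3245 in wildtype and between 2389 and 4247 in KIS-ko (index 0.27, unadjusted p = 0.0449, limma adjusted p = 0.814). The other was an Fmr1 exon at chrX:65958445-65958550, well above the intron level, with signals between 1070 and 1344 in wildtype and between 824 and 1320 in KIS-ko. The Fmr1 exon matches 1 place and had 5 of 6 KIS-ko brains below their littermates, with litter 4 above. Its log2 difference was -0.25 (unadjusted p = 0.0286) and its index -0.18 (unadjusted p = 0.0494, limma adjusted p = 0.817), and without litter 1 the index was -0.11.

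**Figure D5:**
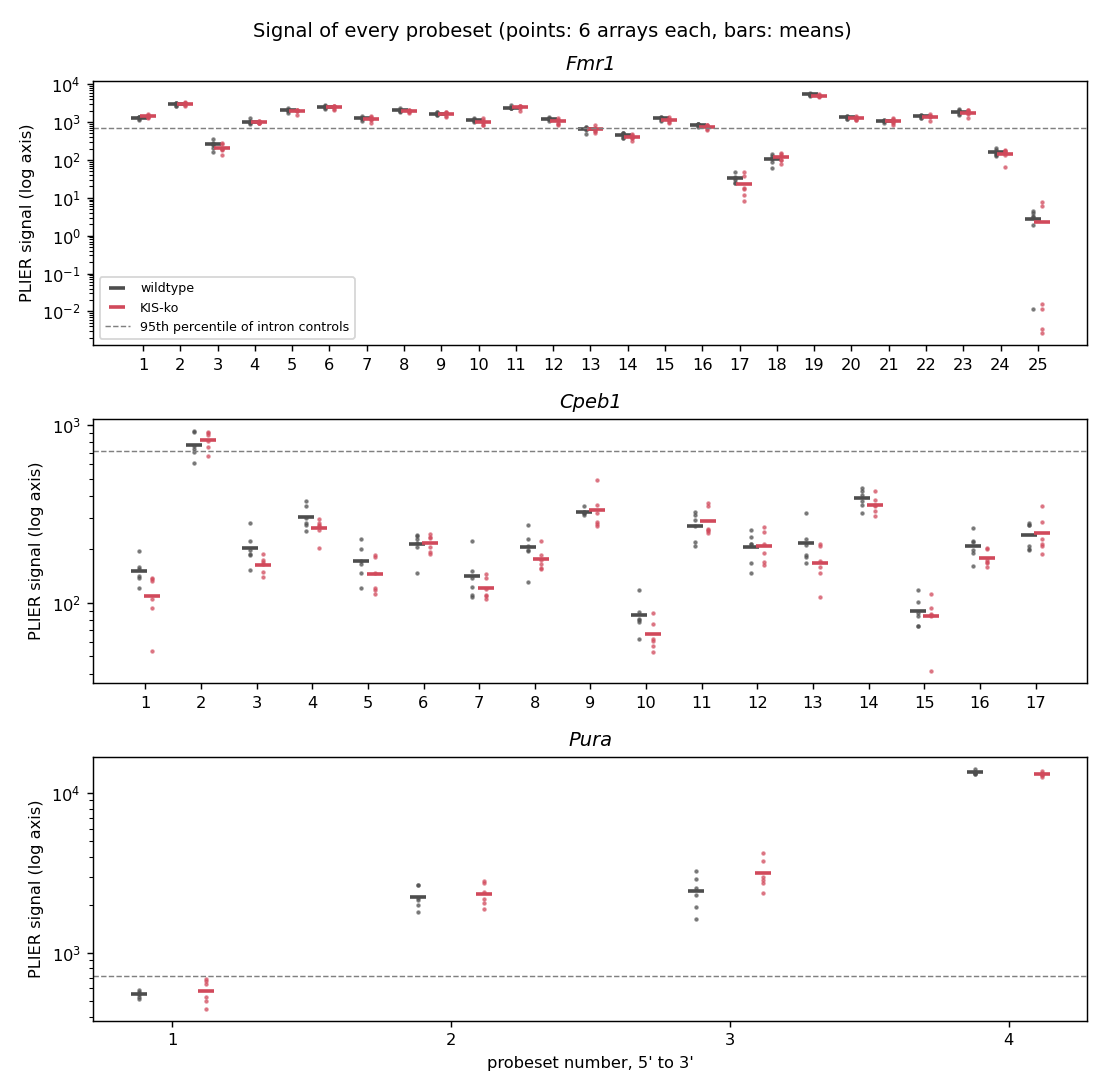
Signal (log axis) of every probeset of Fmr1, Cpeb1 and Pura in 5' to 3' order. Points are the 6 arrays of each genotype, bars their means and the dashed line the 95th percentile of the intron controls (713). Most Fmr1 probesets lie above that line, whereas 1 of 17 does for Cpeb1, and only the third Pura probeset shows a KIS-ko mean well above the wildtype mean. Fmr1 probesets 17 and 25 were rejected for their relative SD.

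Other granule genes were taken from 4 lists, chosen with earlier results of these data known. Close relatives of the granule genes numbered 8, and 7 of them had a lower KIS-ko mean, with a median log2 difference of -0.065 and 0 at an unadjusted p of 0.05. The lowest p belonged to Purg, a relative of Pura (log2 difference -0.11, limma adjusted p = 0.685), and to Pspc1, a DBHS relative of Nono (-0.069, limma adjusted p = 0.703). Of 37 other granule RNA-binding proteins, 34 were lower (median -0.043) and 0 passed an unadjusted p of 0.05, and without litter 4 the counts were 37 and 8, beside 71.8% of all genes that were lower and 23.3% that passed under that setting. Cyfip1, which joins the fragile X protein to translation initiation and actin regulation, had -0.11 (limma adjusted p = 0.685), and Rbm3, a cold-induced RNA-binding protein, had -0.089 (limma adjusted p = 0.685). These counts and those of the relatives and motors stand beside 69.8% of all genes that were lower and 6.16% that passed with all litters. Of 11 motor genes, 10 were lower (median -0.041) and 0 passed, with the lowest p in the kinesin light chain Klc2 (-0.078, limma adjusted p = 0.687) and the kinesin heavy chain Kif3b (-0.072, limma adjusted p = 0.705). The median of all genes was -0.036. With the arrays centred on their medians, 5, 14 and 2 genes of these lists were lower, beside 37.8% of all genes, and after a second quantile normalization 6, 25 and 7, beside 48.6%. The medians moved with the litters. Without litter 4, those of the relatives, the other RNA-binding proteins and the motors were -0.11, -0.069 and -0.075, and that of all genes was -0.057. Without litter 6 they were -0.029, -0.022 and -0.012, and that of all genes was -0.022. Without litter 5 the median of the relatives was -0.043.

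Of 16 transported mRNAs, 14 were lower (median -0.035), beside 69.8% of all genes, and 1 passed an unadjusted p of 0.05, beside 6.16%. This was Rgs4, a regulator of G protein signalling, with a gene value of 9.49 in wildtype and 9.11 in KIS-ko, a log2 difference of -0.38 (95% interval -0.53 to -0.22) that was negative in 6 of 6 litters. Its unadjusted p was 0.000294 and its limma adjusted p was 0.326. With probesets below the intron control level left out, a setting added for the lists after values were seen, its log2 difference was -0.53 with a limma adjusted p of 0.0388. It was then 1 of the 0.0438% of all genes past the adjusted threshold. Rgs4 is listed on chromosome 1 at a distance of 0.452 Mb from Uhmk1. Its genotype difference therefore cannot be told apart from one of a chromosome segment that may have been carried along with the targeted gene. The second was Camk2a, a synaptic kinase whose mRNA is a standard granule cargo (-0.063, limma adjusted p = 0.713). The median of the transported mRNAs was -0.023 without litter 1, -0.018 without litter 5 and -0.020 without litter 6. After centring, 2 of the 16 transported mRNAs were lower (37.8% of all genes), and after a second quantile normalization 8 (48.6% of all genes).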

How the data were processed

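Whole brains of newborn females were measured on exon arrays. In the Affymetrix Expression Console, the authors applied quantile normalization to exon-level data and deposited 1 linear intensity (PLIER signal) per probeset and array, with no depth to state. The number of arrays limits the precision, and no other columns of per-sample values were used. The granule genes and the gene lists were chosen with earlier results of these data known. Genotypes and litters come from the labels.

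Probesets of the main type with a symbol were kept where the relative SD was at most 0.4 in both genotypes (205469 probesets, 17279 genes). Gene values, probesets and splicing indexes (genes with at least 3 probesets) were tested on log2(signal + 16), which understates changes of dim genes, by limma 3.58.1 (R 4.3.3) with a litter block, and p-values were adjusted over all genes or probesets by Benjamini-Hochberg at 0.05. Litter terms were tested with the moderated F test. These tests were checked on simulated data without shifts of whole arrays, so that the check does not cover the scaling of the arrays. Weighted ratios, figures and promoter searches used Python 3.11.15, numpy 2.4.6, pandas 2.3.3 and matplotlib 3.10.9. Named were all 10 genes, Uhmk1, the 2 genes of lowest p of each list and the 3 probesets of lowest p per test. Where the report gives single values for the bright Cpeb1 probeset, the Pura probesets of 1 place and the distance of Rgs4, these were chosen after values were seen.

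Litters pair the arrays by label. After subtraction of the genotype means, littermates correlated with r of 0.272, -0.059, 0.136, -0.106, 0.473 and -0.114 in litters 1 to 6. Alternatives left out the block, changed the pseudocount (1 or 64), the relative SD limit (none or 0.2), the scaling, the averaging over probesets or the moderation, left out dim or cross-hybridizing probesets, or left out 1 litter. For the lists, settings other than block, scaling and litters were added after the data were seen.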

Additional observations from a re-analysis of the deposited data

Results flagged for a closer look

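Of 20 groups of 6 arrays (10 genes in 2 genotypes), 2 held a value far from the others by Dixon's test at the 95% level. Chance flags about 1 in 20 such groups. The wildtype brain of litter 4 had an Fxr1 gene value of 10.2902 on the log2 scale, and the other wildtype brains lay between 10.46 and 10.55. The KIS-ko brain of litter 5 had a Nono gene value of 11.4143, and the other KIS-ko brains lay between 11.61 and 11.69. Litter 4 is also the litter in which 9 of the 10 granule genes were higher in KIS-ko, and litter 5 that with the lowest mean in 5 of them. The KIS-ko minus wildtype difference of Fxr1 was -0.12 without litter 4, and that of Nono was 0.0040 without litter 5.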

How the results depend on the processing

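None of the 10 granule genes passed an adjusted p of 0.05 under any of the alternatives run, and the lowest adjusted p was 0.143 (Cpeb1 without litter 4). The directions of Fmr1, Fxr1 and Pura on the limma scale held in all 17, with Fmr1 at -0.018 and Fxr1 at -0.020 after centring. Others turned with the scaling. Centring on the array medians gave log2 differences of 0.041 (Stau1), 0.0295 (Stau2), 0.0105 (Fxr2), 0.0343 (Nono), 0.0454 (Caprin1) and 0.0289 (G3bp1), with a median of 0.0292 over the granule genes, 3 of 10 genes and 69 probesets lower, and 14, 2 and 2 genes lower among other RNA-binding proteins, motors and transported mRNAs. A second quantile normalization gave 0.0115 (Stau1), 0.00782 (Stau2), 0.00594 (Nono), 0.0189 (Caprin1) and 0.0125 (G3bp1), with a median of 0.00688, 4 genes lower and 8 transported mRNAs lower. The median over probesets gave 0.00054 (Stau1) and 0.0223 (G3bp1). Without dim probesets Cpeb1 was 0.0874 (1 probeset left) and its ratio 1.0852, and with probesets of 1 place the ratio of Pura was 0.9983 and Nono had no value. The cause was not tested.

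Counts at an unadjusted p of 0.05 moved as follows. Granule genes (1) were 0 with a relative SD limit of 0.2, centring or probesets of 1 place, and 2 with the median over probesets or with trend and robust moderation. Without dim probesets the count was still 1, but the gene was Pura and not Cpeb1 (limma adjusted p = 0.748 and 0.784). Among all genes, 1281 of 15762 passed with the limit of 0.2, 1051 of 16324 with probesets of 1 place and 644 of 11425 without dim probesets. Of 17279 genes, 1097 passed after centring, 1090 with the median over probesets, 1192 with trend and robust moderation and 1122 with a pseudocount of 64. These gene counts also stand beside those of the lists below. Probesets (7 of 179) were 3 of 157 with the limit of 0.2, 3 of 136 without dim probesets and 4 of 137 with those of 1 place. Beside them stood 11515 of 150118, 5252 of 91550 and 11648 of 174473 among all probesets. Splicing indexes (3 of 179) were 1 of 179 with a pseudocount of 1, 1 of 183 with no SD limit and 1 of 137 with probesets of 1 place. Among all probesets the counts were 12169 of 202944, 12710 of 219384 and 10364 of 171442. They were 6 of 179 with a pseudocount of 64, 5 of 157 with the limit of 0.2 and 8 of 135 without dim probesets. There, 12613 of 202944, 10039 of 145977 and 4259 of 87135 passed among all probesets. Litter tests (0) were 2 with the limit of 0.2, beside 2130 of 15762 genes. They were 1 with a pseudocount of 64 (2137 of 17279), without dim probesets (2118 of 11425) or with trend and robust moderation (2219 of 17279). With probesets of 1 place the count was 1 (1912 of 16324). Caprin1 was the gene in these. With either scaling the count was 1 as well, but the gene was Fxr2. Among all 17279 genes, 2501 passed after centring and 2600 after a second quantile normalization. Relatives (0) were 1 with the median over probesets, other RNA-binding proteins (0) were 1 with a pseudocount of 64, the limit of 0.2, trend and robust moderation or probesets of 1 place, and transported mRNAs (1) were 2 after centring or without dim probesets, where 1 (Rgs4) passed the adjusted threshold. Genes at least 6% from a ratio of 1 (1) were 2 without weights or without the SD limit, beside 30.7% and 34.8% of all genes. Under either scaling the 1 was Pura in place of Cpeb1, beside 33.1% (centring) and 29.4% (second quantile normalization) of all genes.

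With each litter left out in turn, log2 differences ranged from -0.0468 (without litter 4) to 0.00819 (litter 5) for Stau1, -0.0631 (litter 4) to 0.00315 (litter 2) for Stau2, -0.0711 (litter 4) to 0.00401 (litter 5) for Nono, -0.0255 (litter 4) to 0.00234 (litter 5) for Caprin1 and -0.0611 (litter 4) to 0.00425 (litter 6) for G3bp1. Counts ranged from 0 to 2 for genes, 2 to 27 for probesets, 1 to 23 for splicing indexes, 0 to 1 for litter tests, 0 to 3 for genes at 6%, 0 to 8 for other RNA-binding proteins and 0 to 1 for motors, with every highest count without litter 4, which for litter tests was also reached without litter 6. Over all genes that setting called 23.3% at an unadjusted p of 0.05 (6.16% with all litters), and 44.2% lay at 6% (26.4% with all litters). It also called 16.3% of all probesets, 12.4% of all splicing indexes and, in the litter test, 2733 of 17271 genes. Without the replicate block (unpaired), 1 granule gene, 5 probesets and 4 splicing indexes passed an unadjusted p of 0.05, and no adjusted call changed. Over the whole series, 1017 of 17279 genes, 11903 of 205469 probesets and 11423 of 202944 splicing indexes passed there. Signal over background limits Cpeb1 in particular.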
